A study of Mus musculus with 5 samples.

Results

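The olfactory bulb (OB) was compared with the dentate gyrus (DG) of the adult mouse across protein-coding genes. The comparison covered 13382 of the 20340 coding genes in the deposited table. These were the genes outside the study's long noncoding RNA catalogue with a coding RefSeq accession that reached 1 FPKM in either region, after the values of all transcripts of a symbol had been summed. FPKM is a fragment count divided by transcript length and by the size of the library, so it is a level per length and levels of different genes can be set side by side. Differences are OB minus DG on log2(FPKM + 1), so a positive value is higher in OB, and 1 log2 unit is a 2-fold difference on that scale, which understates the folds of low genes. Where 2 levels are given without a region, the first is OB and the second DG, and a number after them or alone in parentheses is the log2 difference of that gene.

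The mice were wild-type adult males of the C57BL/6 strain, untreated as far as the labels say, and every region was snap-frozen after its dissection. Poly(A) RNA was sequenced from 1 OB library and 1 DG library, beside 2 biological replicates of the subventricular zone (SVZ) and 1 library of the striatum (STR), and the number of mice behind a library is not given. With 1 library per region no difference between OB and DG has a replicate check, so no p-value is given and genes are counted by the size of their difference. In dissected tissue, fewer cells of a type and less RNA per cell cannot be told apart.

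OB and DG are the places where neurons born in adult life join existing circuits. In the bulb the new cells are GABA-releasing granule and periglomerular interneurons that migrate in from the SVZ, some of the latter also make dopamine, and mitral and tufted cells are the glutamatergic output neurons that receive the axons of the nose. In DG the new cells are glutamatergic granule neurons born on the spot, whose mossy fibre axons excite CA3 pyramidal neurons and hilar mossy cells. Several known markers went with the labels. Omp, Calb2 and Eomes stood at 187, 656 and 50.2 FPKM in OB against 0.567, 7.72 and 1.53 in DG. Prox1 and C1ql2 stood at 89.5 and 217 FPKM in DG against 0.925 and 1.15 in OB. These are examples and no separate check, because Omp, Calb2, Prox1 and C1ql2 are among the 15 genes furthest toward OB or DG. Tbr1, also a gene of mitral and tufted cells, was at 8.06 FPKM in OB and 27.6 in DG.

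The libraries differed in ways that bear on the comparison. DG listed 8713 coding transcripts at 0, against 4675 in OB and 5375 to 5751 in the other 3 libraries, and 173 of the tested genes were listed at 0 in DG against 6 in OB. Some of these genes are used by every cell: Atp2a2, a calcium pump of the endoplasmic reticulum, was listed at 0 in DG and at 26.7 to 89.8 FPKM in the other 4 libraries, and Srsf3, a splicing factor, at 0 in OB and at 13.9 to 97.9 FPKM elsewhere. A gene at 0 is therefore described as listed at 0, with no difference. SVZ sample 2 and STR stood apart from the other 3 libraries in RefSeq transcripts shorter than 200 bases, of which 153 and 161 reached 1 FPKM against 14 to 24, and in Gapdh, at 32.4 and 39.5 FPKM against 414 to 563. Their levels are given below as description only.

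The promoters of 4 genes that the reference holds are shown, picked after values were seen from the 15 genes furthest toward OB or DG. Other leading genes, such as Doc2g and C1ql2, are not shown, so the motifs marked in these 4 are examples and not a share. Each runs 5′ to 3′ on the gene's strand from 250 bases before the RefSeq start to 50 after it (GRCm38.p6, while the expression table is on mm9). Th lies on the minus strand at chr7:142899946-142900245, S100a5 on the plus strand at chr3:90608272-90608571, Prdm8 on the plus strand at chr5:98180619-98180918 and Neurod2 on the minus strand at chr11:98329596-98329895. Capitals mark TGACGTCA, the cyclic AMP response element, or CAGATG, an E-box of the kind that bHLH factors such as the NeuroD family bind, read on either strand as CAGATG or CATCTG.
Th: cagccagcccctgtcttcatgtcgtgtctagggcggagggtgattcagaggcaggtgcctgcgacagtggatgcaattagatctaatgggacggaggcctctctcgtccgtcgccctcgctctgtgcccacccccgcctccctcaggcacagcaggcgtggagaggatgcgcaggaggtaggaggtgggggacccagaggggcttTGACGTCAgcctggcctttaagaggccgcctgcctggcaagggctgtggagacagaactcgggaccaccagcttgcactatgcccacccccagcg
S100a5: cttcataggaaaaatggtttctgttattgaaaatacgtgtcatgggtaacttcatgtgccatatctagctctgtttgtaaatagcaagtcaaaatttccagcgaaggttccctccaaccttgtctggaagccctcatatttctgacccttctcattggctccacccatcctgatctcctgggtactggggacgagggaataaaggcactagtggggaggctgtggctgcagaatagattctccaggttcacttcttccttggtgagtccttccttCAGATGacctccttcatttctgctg
Prdm8: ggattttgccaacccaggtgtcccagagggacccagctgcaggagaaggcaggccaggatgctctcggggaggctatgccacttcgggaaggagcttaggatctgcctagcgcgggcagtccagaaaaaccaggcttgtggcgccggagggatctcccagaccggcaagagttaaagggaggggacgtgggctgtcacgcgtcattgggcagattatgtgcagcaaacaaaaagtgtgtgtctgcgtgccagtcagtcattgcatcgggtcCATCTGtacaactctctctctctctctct
Neurod2: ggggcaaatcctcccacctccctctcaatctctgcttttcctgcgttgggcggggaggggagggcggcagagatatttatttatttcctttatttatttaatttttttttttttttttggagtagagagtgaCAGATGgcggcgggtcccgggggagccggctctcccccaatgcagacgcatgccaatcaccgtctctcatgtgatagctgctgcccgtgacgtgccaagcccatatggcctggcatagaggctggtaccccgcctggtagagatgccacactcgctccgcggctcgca

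In Th the capitals begin at position -45 from the start, in S100a5 at 26, in Prdm8 at 22 and in Neurod2 at -118. CAGATG was present in 13.6% of the 435 promoters of genes higher in OB and 14.4% of the 180 promoters of genes higher in DG, beside 11.6% of the 12341 promoters of all tested genes. TGACGTCA was present in 2.53% and 1.11% of them, beside 2.92%. TAATTA, a core bound by homeodomain proteins such as the Dlx factors, was present in 3.68% and 3.33%, beside 2.62%. Promoters were matched by symbol for 335 of 491 and 129 of 196 genes. The shares of both sets lay within a few percentage points of those of all tested genes. For TGACGTCA and TAATTA this says little, because complete absence would also lie within that range. The 1.11% for TGACGTCA rests on 2 of 180 promoters. A match is a description of the letters only.

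In all, 12118 genes reached 1 FPKM in both regions, 939 in OB alone and 325 in DG alone. The median difference over the 13382 genes was 0.25, the 10th percentile -0.61 and the 90th 1.23, and 10738 genes (80.2%) lay within 1 log2 unit. By at least 2 log2 units, 491 genes (3.67%) were higher in OB and 196 (1.46%) higher in DG. Of these genes 71.5% were thus higher in OB, and the share was 57.8% (362 against 264) when differences were centred on the median gene and 56.1% (350 against 274) when they were corrected for GC content. At 4 log2 units or more the counts were 50 and 24, and at 6 or more 10 and 2.

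**Figure D1:**
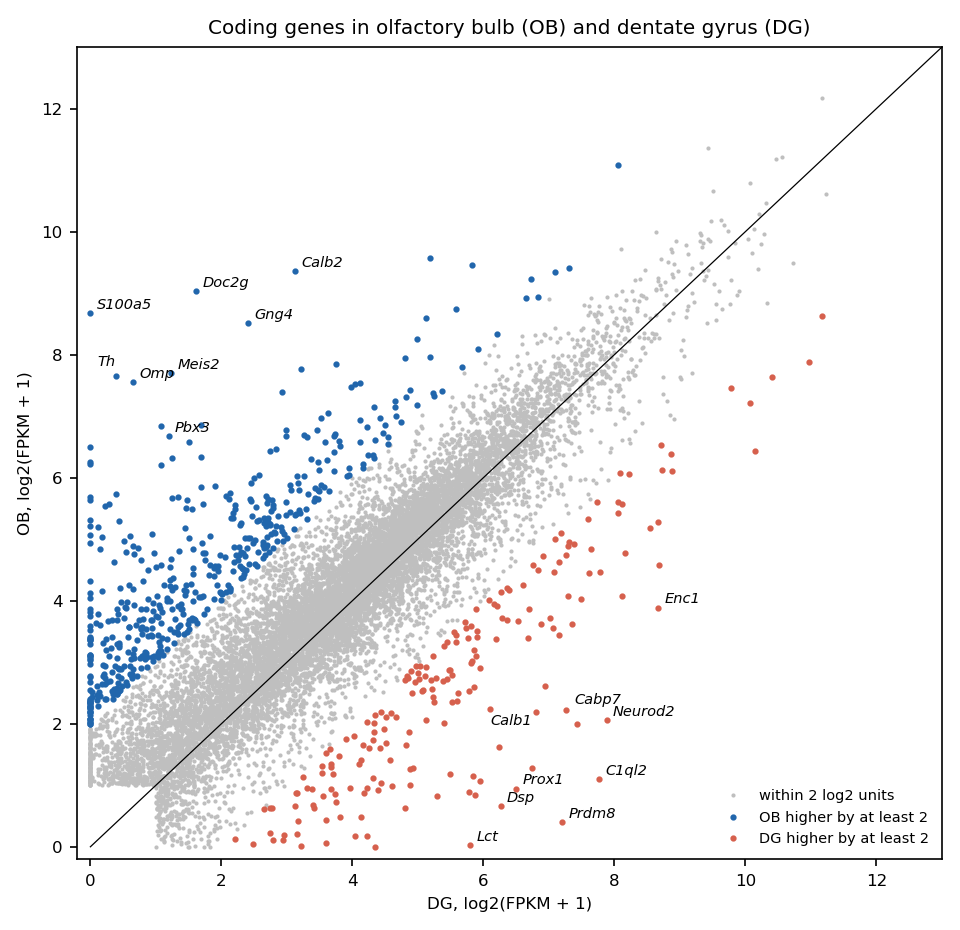
Level of each of the 13382 tested coding genes in DG (x axis) and OB (y axis), both as log2(FPKM + 1), with the line of equal level. The 491 genes higher in OB by at least 2 log2 units are blue and the 196 higher in DG red; points on the left edge are listed at 0 in DG, as for S100a5.

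The genes higher in OB and those higher in DG differed in level. The median gene of the 491 was at 20.3 FPKM in OB and 1.59 in DG, while the median gene of the 196 was at 43 FPKM in DG and 4.81 in OB. Of the 491 genes 198 were under 1 FPKM in DG, 59 of them listed at 0, and of the 196 genes 43 were under 1 FPKM in OB, 1 of them listed at 0. Median GC content was 53.2% for the genes higher in OB, 51.5% for those higher in DG and 50.8% for all tested genes. Across genes the difference followed GC content with a Spearman rho of 0.240 over 13341 genes, which share the 2 libraries, and its median was 0.04, 0.31 and 0.42 among genes of low, middle and high GC content. Its part in single differences was not tested.

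Most of these genes did not have the same level in the SVZ as in the higher region. SVZ sample 1 lay nearer OB than DG for 163 of the 491 genes (33.2%) and nearer DG than OB for 66 of the 196 genes (33.7%). In STR the counts were 96 (19.6%) and 59 (30.1%). At least 2 log2 units above both SVZ samples and STR as well were 208 of the 491 (42.4%) and 96 of the 196 (49%).

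The 15 genes furthest toward OB among those at 5 FPKM or more included genes known from its interneurons, its output neurons and the olfactory nerve. Calb2 (8:112666438-112692106 on mm9), the interneuron calcium-binding protein calretinin, was at 656 FPKM in OB, 7.72 in DG and 0.981 to 4.9 in SVZ and STR, a difference of 6.24. Th (7:150078681-150085871), tyrosine hydroxylase, the rate-limiting enzyme of dopamine synthesis, was at 200 FPKM in OB, 0.311 in DG and 1.83 to 4.24 elsewhere, a difference of 7.26. Trh, the precursor of thyrotropin-releasing hormone, reached 75.1 FPKM in OB, with DG listed at 0 and the others at 0.946 to 2.51 elsewhere. All 3 were thus high in OB alone.

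Doc2g, a C2-domain protein known from mitral and tufted cells, was at 524 FPKM in OB, 2.07 in DG and 1.86 to 3.06 elsewhere, a difference of 7.42 and the largest among genes above 0 in both regions. Gng4, a G protein gamma subunit, was at 364 FPKM against 4.32 in DG and 5.61 to 7.13 elsewhere (6.10). S100a5 (3:90412444-90415702) and Omp are genes of olfactory sensory neurons, whose cell bodies lie in the nose and whose axons form the outer layer of the bulb. S100a5 reached 409 FPKM in OB, with the other 4 libraries listed at 0, and Omp was at 187 FPKM against 0.567 in DG and 0.0157 to 0.202 elsewhere (6.91). Aqp1, a water channel of olfactory ensheathing glia and choroid plexus, reached 50.7 FPKM in OB, with DG listed at 0 and the others at 0.0562 to 0.283. Ms4a15 at 73.3 FPKM and Shisa3 at 49 were listed at 0 in DG and at 0 to 0.0513 in SVZ and STR.

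A different pattern belonged to the homeodomain factors Meis2 and Pbx3, which bind DNA together. Meis2 (2:115687000-115890794) was at 207 FPKM in OB and 1.35 in DG, but at 135 to 171 in SVZ and STR, so DG alone was low (6.47). It is the sum of 6 transcripts, and the transcript estimates moved between libraries: one was at 57.7 FPKM in OB, 96.6 in STR and 0 in DG, another at 66.7 in OB and 0.00374 in STR. Pbx3 was at 101 FPKM in OB, 1.29 in DG and 28.3 to 31.5 elsewhere (5.48). The loci AI848285 (114 FPKM in OB, 1.11 in DG, 5.76) and A230065H16Rik (52.5 and 0.306, 5.36) completed the 15, with Atp2a2 as described above.

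The 15 genes furthest toward DG included transcription factors of excitatory neurons, with Prdm8 the furthest. Prdm8 (5:98609888-98616467), a repressor that acts with the bHLH factor Bhlhe22, was at 146 FPKM in DG, 0.322 in OB and 0.165 to 0.35 elsewhere (-6.79). Its partner Bhlhe22 was at 106 FPKM in DG, 1.43 in OB and 0.334 to 0.695 elsewhere (-5.46). Neurod2, a bHLH factor of glutamatergic neurons, was at 235 FPKM in DG, 3.16 in OB and 0.139 to 1.03 elsewhere (-5.83). Prox1 (1:191945658-192041157), the homeodomain factor that maintains granule cell identity, was at 89.5 FPKM in DG, 0.925 in OB and 2.94 to 5.39 elsewhere (-5.55), so in OB it was below SVZ and STR too. Neurod6 was at 57.4 FPKM in DG and 0.797 in OB (-5.02).

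The secreted C1q-like proteins C1ql2 and C1ql3, which granule cells release at mossy fibre synapses, followed. C1ql2 (1:122237159-122239751) was at 217 FPKM in DG and 0.225 to 1.15 in the other 4 libraries (-6.66), and C1ql3 at 172 FPKM in DG and 2.68 to 3.6 elsewhere (-5.44). Lct, lactase, an intestinal enzyme also known as a granule cell marker, was at 54.5 FPKM in DG and at most 0.0505 elsewhere (-5.77). Dsp, desmoplakin, a junction protein, was at 75.8 FPKM in DG and 0.579 or less elsewhere (-5.60). These 4 were high in DG alone. The calcium sensor Cabp7 was at 152 FPKM in DG and 3.68 in OB (-5.03) and the olfactomedin-like Olfml2b at 1.1 FPKM in OB and 60.4 in DG (-4.87).

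Some genes of this set were above OB in SVZ and STR too. Calb1, the calcium buffer calbindin, was at 111 FPKM in DG and 3.54 in OB (-4.62), but at 72.9 to 124 in SVZ and STR, so OB alone was low. Enc1, an actin-binding kelch protein, was at 405 FPKM in DG, 108 to 126 in SVZ and STR and 13.8 in OB (-4.78). The scaffold Iqgap2 was at 53.8 FPKM in DG, 7.93 to 12.4 in SVZ and STR and 0.848 in OB (-4.89).

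**Figure D2:**
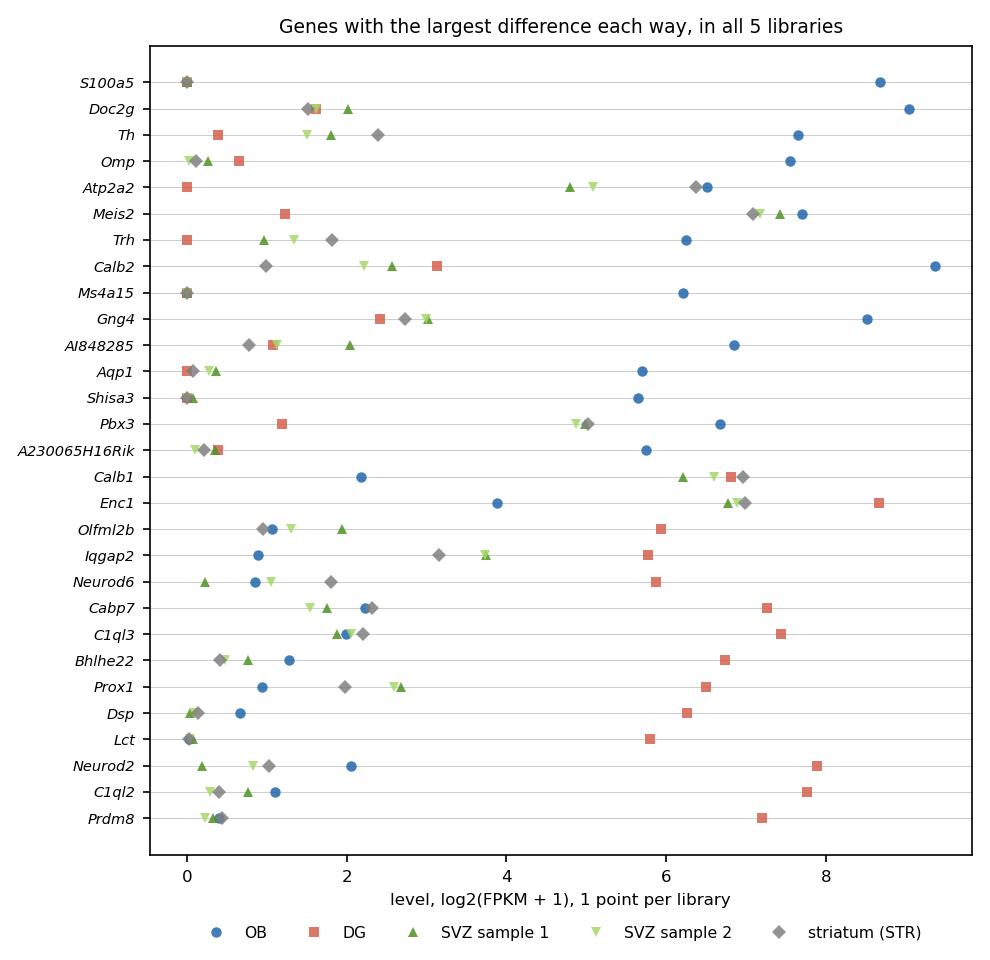
Level in each of the 5 libraries, as log2(FPKM + 1), of the 15 genes with the largest difference toward OB (upper rows) and 14 of the 15 toward DG (lower rows), 1 point per library. S100a5, Trh, Ms4a15, Aqp1, Shisa3 and Atp2a2 are listed at 0 in DG; Meis2 and Pbx3 are low in DG alone, and Calb1 is low in OB alone.

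Genes were then read by cell type and function in 49 lists. Across all tested genes 14.4% were at least 1 log2 unit higher in OB and 5.31% at least 1 higher in DG, and list counts are to be read against these shares. The shares hold for differences without centring or GC correction. Both settings also move the counts over all genes, at 2 log2 units from 491 and 196 to 362 and 264 with centring. List counts given after centring or the GC correction thus show how far a count depends on scaling. They have no share of all genes beside them. Medians of lists are given relative to the median of all tested genes, after subtraction of its 0.25. With the GC correction in place of this centring the sign turned for 2 of 49 list medians, those of axon guidance and ribosomal protein genes.

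Transcription factors of bulb interneurons were higher in OB for 20 of 25 tested, by at least 1 log2 unit, and higher in DG for 1, with a relative median of 2.45. The Dlx homeodomain factors specify GABAergic interneurons: Dlx1 was at 167 FPKM in OB and 6.58 in DG (4.47), Dlx2 at 50.1 and 1.37 (4.43), Dlx5 at 52.9 and 3.4 (3.61) and Dlx6 at 26.2 and 0.583 (4.10). Dlx1 and Dlx6 have antisense neighbours, and without strand information their reads cannot be told apart. Sp8, a zinc finger factor of periglomerular cells, was at 45.4 FPKM in OB, 0.171 in DG and 0.0186 to 4.47 elsewhere (5.31), and its relative Sp9 at 79.7 and 2.24 (4.64). Tshz1 was at 125 and 10.5 FPKM (3.46), and Pax6, needed for the dopaminergic cells, at 32.8 and 5.79 (2.31). Etv1, Sall3 and Nr2f2 were likewise higher in OB, by 1.76, 3.45 and 2.71. Nr4a2 (0.41), Nr2f1 (0.16), Zic5 (0.26) and Rarb (-0.01) lay within 1 unit.

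Marker genes of bulb interneurons gave 11 of 13 higher in OB and 0 in DG (relative median 2.33). Beside Calb2, Th and Trh, Pcp4l1, a relative of the calmodulin-binding protein Pcp4, was at 763 FPKM in OB and 35.4 in DG (4.39), but also at 461 to 686 in SVZ and STR. Synpr, synaptoporin, a vesicle protein of granule cells in both regions, was at 214 and 143 FPKM (0.57), and Kctd12, a GABA-B receptor subunit, at 99.1 and 57.6 (0.77). Genes of mitral and tufted cells gave 8 of 12 higher in OB and 1 in DG (2.59). Cdhr1, a cadherin-related protein of these cells, was at 216 FPKM in OB, 8.28 in DG and 0.581 to 1.84 elsewhere (4.55). Nmb, neuromedin B, was at 108 and 6.92 FPKM (3.78), and Reln, the extracellular guidance protein reelin, at 84.6 and 12.2 (2.70). The member higher in DG was Tbr1, at 8.06 and 27.6 FPKM (-1.66). Uchl1, a ubiquitin hydrolase of most neurons, was at 321 and 389 FPKM (-0.28).

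Genes of the olfactory nerve gave 5 of 11 higher in OB and 1 in DG (0.74), and 3 and 1 without the 2 members listed at 0 in DG. The 5 were Omp, S100a5, Stoml3 (38.5 FPKM in OB, listed at 0 in DG), Gng13 (115 and 21.7 FPKM, 2.35) and the adhesion gene Kirrel3 (58.5 and 25.9 FPKM, 1.15). Gng13 takes part in olfactory transduction, and 3 other transduction genes were not past 1 unit toward OB: Adcy3 was at 21 and 15.4 FPKM (0.43), Gnal at 20.6 and 59.2 (-1.47) and the channel Ano2 at 0.554 and 1.22 (-0.51). Of 1090 olfactory receptor genes 9 reached 1 FPKM in either region, with 0 at least 1 unit higher in OB and 2 in DG. Depth is unknown, so receptors under 1 FPKM were not read further.

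Genes of olfactory ensheathing glia, the cells that wrap sensory axons, gave 11 of 12 higher in OB and 0 in DG (1.51), with 3 listed at 0 in DG. Fabp7, a brain lipid-binding protein also of radial glia and astrocytes, was at 702 FPKM in OB, 56 in DG and 12.5 to 46.9 elsewhere (3.63). Frzb, a secreted Wnt antagonist, was at 55.3 FPKM in OB, 15.3 in DG and 0.409 to 0.575 elsewhere (1.79), which leaves both regions above SVZ and STR. Foxd3, a factor of the neural crest lineage, reached 15.5 FPKM in OB, with the other 4 libraries listed at 0. Sox10 and Cldn5 in this list are also genes of oligodendrocytes or endothelium.

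**Figure D3:**
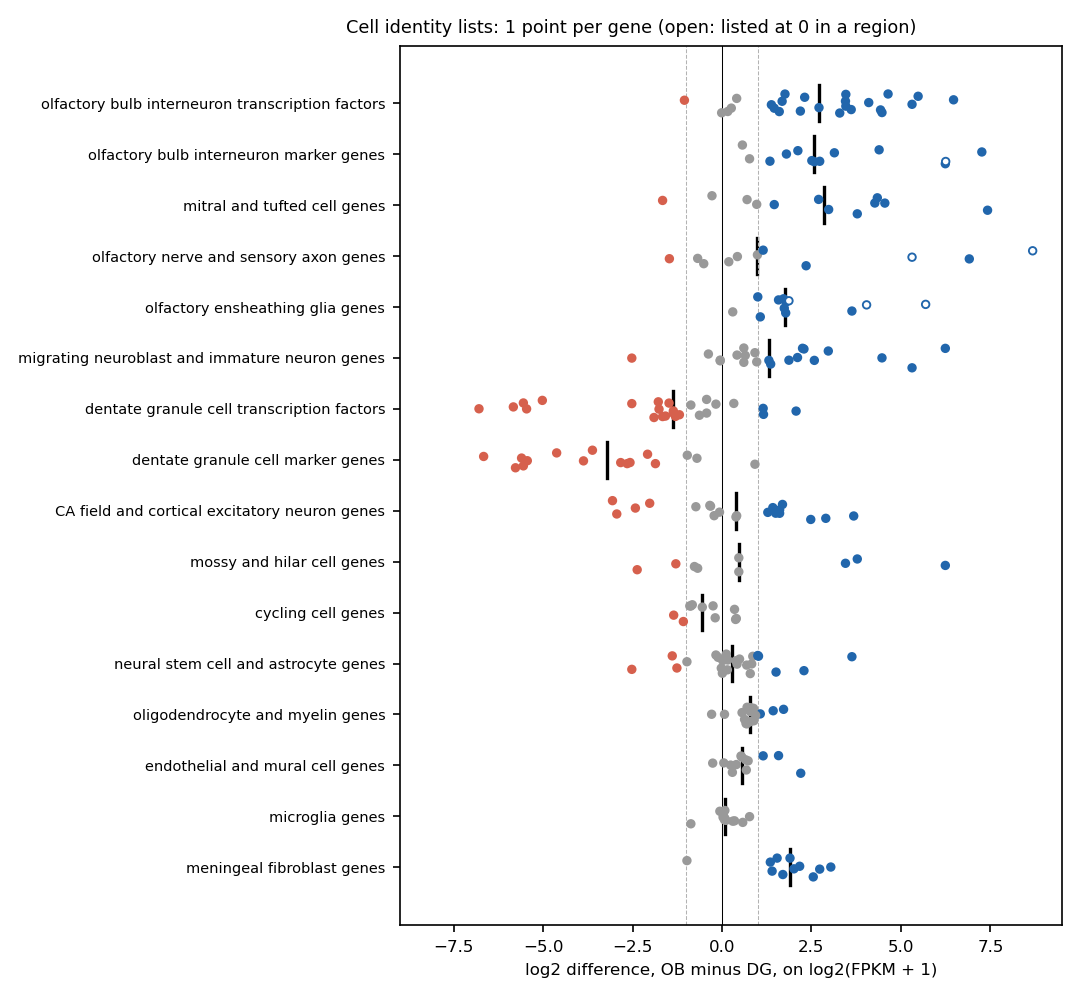
Difference OB minus DG, on log2(FPKM + 1), of every tested member of 16 cell identity lists, 1 point per gene, with the list median, before subtraction of 0.25, as a black bar and dashed lines at 1 unit each way. Open points are listed at 0 in 1 of the regions, so their place depends on the added 1 alone. Granule cell markers lie furthest left, with 13 of 16 at least 1 unit higher in DG, and bulb interneuron factors and mitral and tufted cell genes furthest right.

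Transcription factors of dentate granule cells and the hippocampal field gave 16 of 25 higher in DG and 3 in OB (relative median -1.62). After the leaders, Neurod1, which newborn granule cells require, was at 32.3 FPKM in DG and 4.81 in OB (-2.52) and at most 0.0593 elsewhere, so OB was above SVZ and STR. Emx1 (5.77 FPKM in OB and 24.3 in DG, -1.90) and Emx2 (3.39 FPKM in OB and 13.8 in DG, -1.76), homeodomain factors of the dorsal telencephalon, were higher in DG. The nuclear factor I genes Nfix (42 FPKM in OB and 109 in DG, -1.36), Nfia (6.18 FPKM in OB and 17.5 in DG, -1.36) and Nfib (11.7 FPKM in OB and 42.6 in DG, -1.78) were higher there too. Klf9 lay within 1 unit, at -0.43. The 3 higher in OB were Npas4 (2.07), an activity-induced gene, Etv4 (1.16) and Id2 (1.15), and 1 of them remained after centring on the median gene.

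Markers of granule cells gave 13 of 16 higher in DG and 0 in OB (-3.48). Tdo2, a tryptophan-degrading enzyme, was at 15.5 FPKM in DG and 0.131 in OB (-3.87), and the channel Trpc6 at 2.33 FPKM in OB and 18.8 in DG (-2.57). Plk5, a kinase-like protein, was at 8.23 FPKM in OB and 57 in DG (-2.65). Rspo3, a Wnt amplifier, did not follow, at 7.19 FPKM in DG and 14.5 in OB (0.92). Genes of CA and cortical excitatory neurons were mixed, with 9 of 20 higher in OB and 4 in DG (0.15): Rgs14 (33.8 FPKM in DG and 3.19 in OB, -3.06) and Dkk3 (13.5 FPKM in OB and 58 in DG, -2.02) were higher in DG, and Wfs1 (47.9 FPKM in OB and 16.3 in DG) and Amigo2 (27.5 FPKM in OB and 8.34 in DG, 1.61) higher in OB. Of 9 genes of mossy and other hilar cells 3 were higher in OB, namely Calb2, Cartpt (24.7 and 1.35 FPKM, 3.45) and Nmb, and Sst (-2.37) and Csf2rb2 (-1.29) were higher in DG. Calb2, which is also in the bulb interneuron list, was at 7.72 FPKM in DG, 3.65 to 4.9 in the SVZ and 0.981 in STR. Its level in DG is therefore not read as a measure of mossy cells.

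Genes of the GABA system leaned to OB, with 8 of 9 higher there and 0 in DG (1.87). Both synthesis enzymes were higher, Gad1 at 602 FPKM in OB and 105 in DG (2.51) and Gad2 at 100 and 22.3 (2.12). The vesicle transporter Slc32a1 was at 245 and 26.9 FPKM (3.14). Of the uptake carriers, the astrocytic Slc6a11 was at 429 and 46.8 FPKM, with 22.7 to 42.6 elsewhere (3.17), and Slc6a13, also a meningeal gene, at 18.4 and 1.91 (2.73). Aldh5a1, the last step of GABA breakdown, was at 32.9 and 28.3 FPKM (0.21). SVZ and STR, which also hold GABAergic neurons, lay at 180 to 202 FPKM for Gad1 and 125 to 171 for Gad2, so Gad2 was higher there than in OB.

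In the glutamate list 5 of 16 were higher in OB and 1 in DG (0.40). The vesicular transporter Slc17a7 was abundant in both regions, at 453 FPKM in OB and 752 in DG (-0.73), against 2.29 to 21.4 in SVZ and STR. Slc17a6, the other main form, was at 10.9 FPKM in OB and 0.507 in DG (2.98). The astrocytic uptake carrier Slc1a2 was the member higher in DG, at 428 FPKM against 163 (-1.39), while its partner Slc1a3 was at 237 FPKM in OB and 177 in DG (0.42). Slc38a3, a glutamine carrier, was at 36.9 FPKM in DG and 159 in OB (2.08).

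In the dopamine list 3 of 14 were higher in OB, all 3 in synthesis or transport: Th, Ddc, the second enzyme, at 5.89 and 0.978 FPKM (1.80) and the plasma membrane carrier Slc6a3 at 6.01 and 0.153 (2.60). The cofactor genes Gch1 (-0.08), Pts (0.04) and Qdpr (0.18) lay near 0. The receptor Drd5 was higher in DG, at 12.5 FPKM against 0.665 (-3.02), while Drd1a (1.2 and 2.13 FPKM) and Drd2 (3.75 and 2.42 FPKM) were low in both regions, against 108 to 158 and 87.5 to 208 in SVZ and STR. The list of striatal projection neurons, which shares them, gave 6 of 17 higher in OB and 0 in DG (0.22).

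Neuropeptide precursors gave 15 of 27 higher in OB and 3 in DG (1.13), with 3 listed at 0 in DG. Beside Trh and Nmb, Penk, the enkephalin precursor, was at 230 FPKM in OB and 12.4 in DG (4.10), Vip at 14.2 and 0.581 (3.26), Crh at 11.7 and 0.205 (3.40) and Adcyap1 at 11.8 and 0.9 (2.75). Npy was at 250 and 74 FPKM (1.74). The 3 higher in DG were Pdyn, the dynorphin precursor, at 21.9 FPKM against 2.23 (-2.83), Sst, somatostatin, at 158 against 29.9 (-2.37), and Avp at 2.54 against 0.169 (-1.60). Cck, abundant in both, was at 309 FPKM in OB and 348 in DG (-0.17). Of the opioid family, Penk and Pdyn thus stood on opposite sides, and Pomc (2.66 and 1.75 FPKM, 0.41) and Pnoc (4.84 and 4 FPKM, 0.22) lay within 1 unit.

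Calcium-binding proteins split, with 9 of 27 higher in OB and 8 in DG (relative median -0.70). On the OB side stood S100a5, Calb2, the interneuron sensor Scgn (36.4 and 5.69 FPKM, 2.48), Kcnip1 (38 and 5.52, 2.58) and Necab2 (81.7 and 18.9, 2.05). On the DG side stood Cabp7, Calb1, Hpca, hippocalcin, at 1137 FPKM in DG against 85.2 in OB (-3.72), Ncald at 299 against 66 (-2.16) and Hpcal1 at 45.7 against 10.3 (-2.04). Hpca was also at 733 to 1346 FPKM in SVZ and STR, so OB alone was low. The calmodulin genes Calm2 (-0.37) and Calm3 (-0.44) lay within 1 unit.

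Of 17 GABA-A and glycine receptor subunits 4 were higher in OB and 2 in DG (-0.41). Gabra3 was at 46.8 FPKM in OB, 2.28 in DG and 10.5 to 12.4 elsewhere (3.86), and the other 3 higher in OB, Gabrq, Glra1 and Glra4, were listed at 0 in DG and at 1.11 to 1.56 FPKM in OB. Gabra4 (16.6 FPKM in OB and 47.4 in DG, -1.46) and Gabrb1 (14.1 and 30.4, -1.06) were higher in DG.

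Of 28 ionotropic glutamate receptor genes and partners 9 were higher in OB and 3 in DG (-0.15), and the latter count was 7 after centring. Among AMPA receptor subunits Gria4 was higher in OB, at 48.3 against 9.67 FPKM (2.21), and Gria1 (202 and 316, -0.64), Gria2 (137 and 244, -0.83) and Gria3 (32.4 and 55.8, -0.77) lay on the DG side within 1 unit. Among NMDA receptor subunits Grin2d was higher in OB (21.5 and 4.17 FPKM, 2.12) and Grin2a higher in DG (10.9 and 34.4, -1.57), while Grin2b was at 17.8 and 17.7 (0.01). Of the kainate subunits Grik4 was at 23 FPKM in DG and 3.5 in OB (-2.42), and Grik1 (1.85) and Grik3 (1.68) were higher in OB. The AMPA receptor partner Cacng5 was at 101 FPKM in OB, 6.92 in DG and 2.15 to 6.63 elsewhere (3.68), and Cnih2 at 151 and 445 (-1.56).

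Metabotropic glutamate and GABA-B receptors, listed together with the Homer scaffold genes, gave 2 of 12 higher in OB and 3 in DG (-0.41). Homer3, a scaffold and not a receptor, was among the 3 (18.1 FPKM in OB and 46 in DG, -1.30). Grm4, a presynaptic group III receptor, was at 79.3 FPKM in OB, 1.38 in DG and 16.3 to 33.8 elsewhere (5.08), and Grm8 of the same group at 13.3 and 0.931 (2.89). Gabbr2, a GABA-B receptor subunit, was at 119 FPKM in DG and 25.6 in OB (-2.17), while its partner Gabbr1 was at 231 FPKM in OB and 252 in DG (-0.13). Grm2, of group II, was at 103 FPKM in OB and 118 in DG (-0.19), against 0.312 to 0.866 in SVZ and STR, and so was a gene that OB and DG shared.

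Receptors for serotonin, noradrenaline and acetylcholine gave 11 of 24 higher in OB and 4 in DG (0.54), with 7 higher in OB after centring. The muscarinic receptors were divided: Chrm2 was at 24.3 FPKM in OB and 0.704 in DG (3.89), Chrm4 at 37.2 and 5.3 (2.60), and Chrm1 at 30.8 and 91.3 (-1.54). Of the adrenergic receptors Adra1a was higher in OB (9.91 and 0.897 FPKM, 2.52) and Adra1d higher in DG (20 and 52.4, -1.35), the latter at 0.128 to 0.416 FPKM in SVZ and STR. Htr4 was at 8.33 FPKM in DG and 0.00626 in OB (-3.21), and Htr1a at 2.33 FPKM in OB and 5.92 in DG (-1.05), while Htr1f had 4.15 FPKM in OB, with DG listed at 0.

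Postsynaptic kinases, scaffolds and plasticity proteins leaned toward DG, with 12 of 33 higher in DG and 2 in OB (-0.79). Camk2a, the alpha subunit of calcium/calmodulin kinase II, was at 2304 FPKM in DG, 394 in OB and 317 to 562 elsewhere (-2.55). Nrgn, the calmodulin-binding neurogranin, was at 2008 FPKM in DG and 234 in OB (-3.10), and the dendritic protein Ddn at 198 FPKM in OB and 1357 in DG (-2.77). Itpka, an inositol kinase of dendritic spines, was at 9.87 FPKM in OB and 142 in DG (-3.72), and the calcineurin genes Ppp3ca and Ppp3r1 differed by -2.33 and -1.51. The scaffolds Dlg4 (-0.27), Shank1 (-0.05) and Dlgap1 (0.03) lay near 0. Camk2d (35.9 FPKM in OB and 11.1 in DG, 1.61) and Prkca (86 and 42, 1.02) were the members higher in OB.

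Among adenylyl cyclases, phosphodiesterases and RGS proteins, which set cyclic AMP and G protein signals, 10 of 43 were higher in OB and 5 in DG (0.16). The calcium-stimulated cyclases stood on opposite sides: Adcy1 was at 407 FPKM in DG, 22.9 in OB and 16.7 to 38.8 elsewhere (-4.09), and Adcy8 at 4.44 FPKM in DG and 31.5 in OB (2.58). Pde1c (9.22 and 0.64 FPKM, 2.64), Pde4d (36.1 and 6.1, 2.38) and Rgs3 (21.4 and 3.53, 2.30) were higher in OB, and Pde8b (6.69 and 30.2, -2.02) in DG.

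Synaptic organisers, secreted or membrane proteins that join the sides of a synapse, were divided between the regions, with 8 of 30 higher in OB and 8 in DG (-0.81), the latter 13 after centring. The cerebellins were on the OB side: Cbln1 was at 43.8 FPKM in OB and 1.94 in DG (3.93), Cbln2 at 19.2 and 1.31 (3.13) and Cbln4 at 13.7 and 1.09 (2.82). The related C1ql2 and C1ql3 were on the DG side, as was Nptx1, a pentraxin that clusters AMPA receptors, at 404 FPKM in DG, 37.7 in OB and 11.2 to 12.7 elsewhere (-3.39). Nptx2 was higher in OB, at 70.8 against 20.1 (1.76). Of the neurexins, Nrxn3 was at 79.3 and 19.1 FPKM (2.00) and Nrxn2 at 212 and 94.1 (1.17). Lgi1 was at 70.6 FPKM in DG and 14.5 in OB (-2.21), and Lgi2 at 16.1 FPKM in OB and 3.55 in DG (1.91).

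Genes of the vesicle release machinery lay near the median of all genes, with 9 of 39 higher in OB and 4 in DG (-0.03), and 4 and 8 after the GC correction. Of the fusion core, Snap25 was at 998 FPKM in OB and 1239 in DG (-0.31) and Vamp2 at 895 and 649 (0.46). Syp, also in this list but not part of that core, was at 676 and 582 FPKM (0.22). The complexins, which clamp the fusion core, were exchanged, Cplx1 at 838 FPKM in OB and 273 in DG (1.61) and Cplx2 at 147 and 1073 (-2.86). Rims3 (62.8 and 4.65 FPKM, 3.50) and Rab3b (96.2 and 12.9, 2.80) were higher in OB, and Rph3a (15.8 and 277, -4.05), Doc2b (6.53 and 60.6, -3.03) and Syt17 (8.64 and 41.3, -2.13) in DG.

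Of 20 voltage-gated potassium channel genes 2 were higher in OB, Kcna5 (9.4 and 1.24 FPKM, 2.21) and Kcnb2 (9.99 and 1.54, 2.11), and 4 in DG, among them Kcnc4 (11 and 55.3, -2.23) and Kcnq3 (7.6 and 23.6, -1.52), with a relative median of 0.32. Of 28 sodium, calcium and HCN channel genes 8 were higher in OB and 4 in DG (-0.13). The low-threshold calcium channels Cacna1g (47.4 and 6.94 FPKM, 2.61) and Cacna1i (54.4 and 7.36, 2.73) and the pacemaker channels Hcn4 (18.9 and 0.748, 3.51) and Hcn3 (31.6 and 4.16, 2.66) were higher in OB. The third low-threshold channel, Cacna1h, was at 46.4 FPKM in OB and 89.4 in DG (-0.93). Cacna2d3 (8.61 and 23.5 FPKM, -1.35) and Scn8a (27.8 and 63.3, -1.16) were higher in DG.

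**Figure D4:**
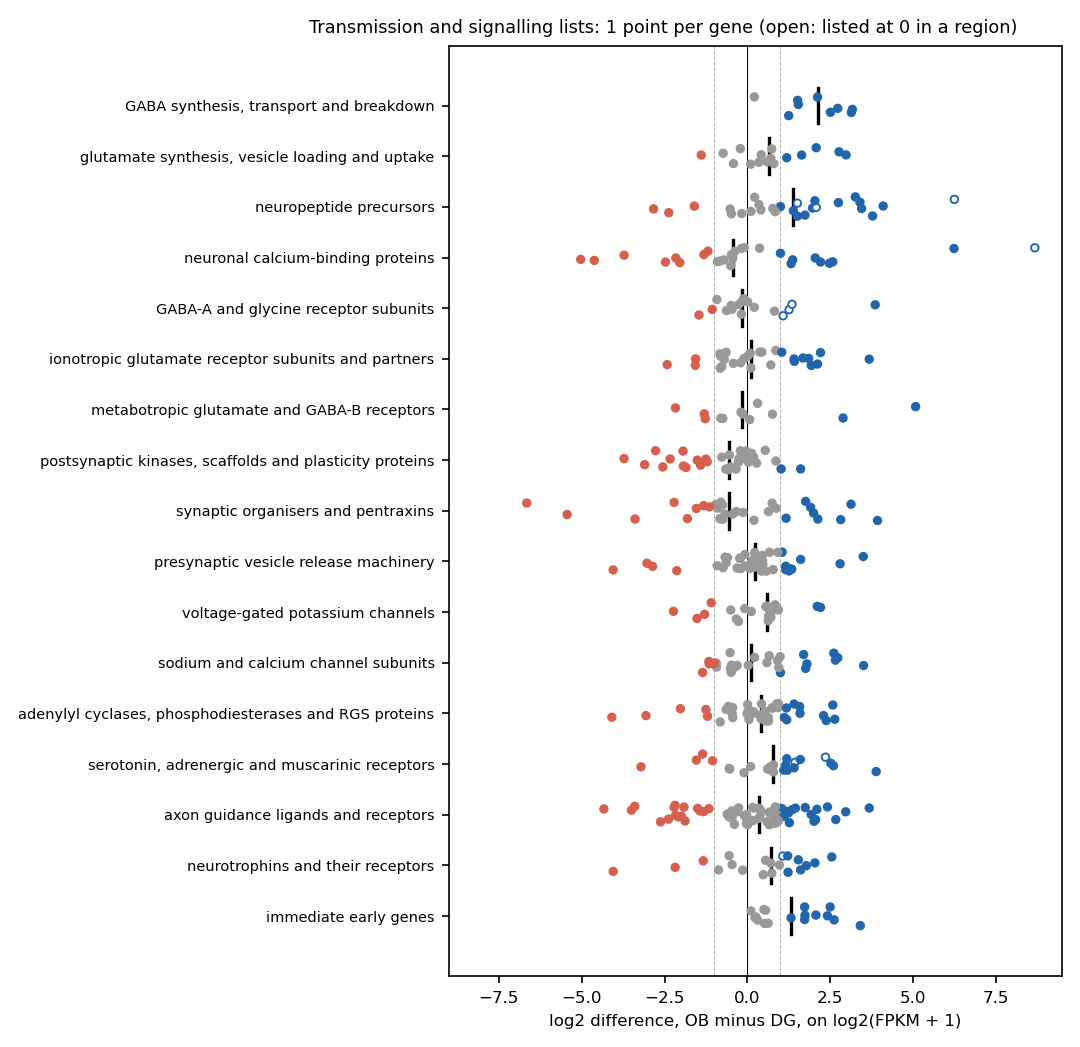
Difference OB minus DG, on log2(FPKM + 1), of every tested member of 17 lists of transmission and signalling genes, 1 point per gene, with the list median, before subtraction of 0.25, as a black bar and dashed lines at 1 unit each way. Open points are listed at 0 in 1 of the regions. GABA system genes lie to the right, with 8 of 9 at least 1 unit higher in OB, and postsynaptic proteins spread to the left, with 12 of 33 at least 1 unit higher in DG.

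Of 12 gene families 3 had members at least 1 unit higher in OB and others at least 1 unit higher in DG, namely the calcium buffers, the Tbr1 group of T-box factors and the Camk2 subunits. Calb1 and Calb2 were at 111 and 7.72 FPKM in DG and 3.54 and 656 in OB. Of the related T-box factors, Tbr1 was at 27.6 FPKM in DG and 8.06 in OB (-1.66), and Eomes (50.2 FPKM in OB and 1.53 in DG, 4.34) and Tbx21 (23.8 and 0.29, 4.27) were higher in OB. The NeuroD factors Neurod1, Neurod2 and Neurod6 were all higher in DG, and the Meis factors Meis1 (27.6 and 0.104 FPKM, 4.69), Meis2 and Meis3 (30.5 and 19.1, 0.65) all lay on the OB side. The 5 Zic genes lay on the OB side as well, from Zic1 at 59.3 and 4.48 FPKM (3.46) to Zic5 at 1.83 and 1.36 (0.26). The Ebf factors differed little, from -0.24 for Ebf4 to 0.97 for Ebf1. Camk2b (594 and 880 FPKM, -0.57) and Camk2g (78.4 and 90.7, -0.21) lay within 1 unit, between Camk2a and Camk2d. Zic5 lay at -0.02 under the GC correction, and the other Zic and Meis genes kept their side under each scaling.

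**Figure D5:**
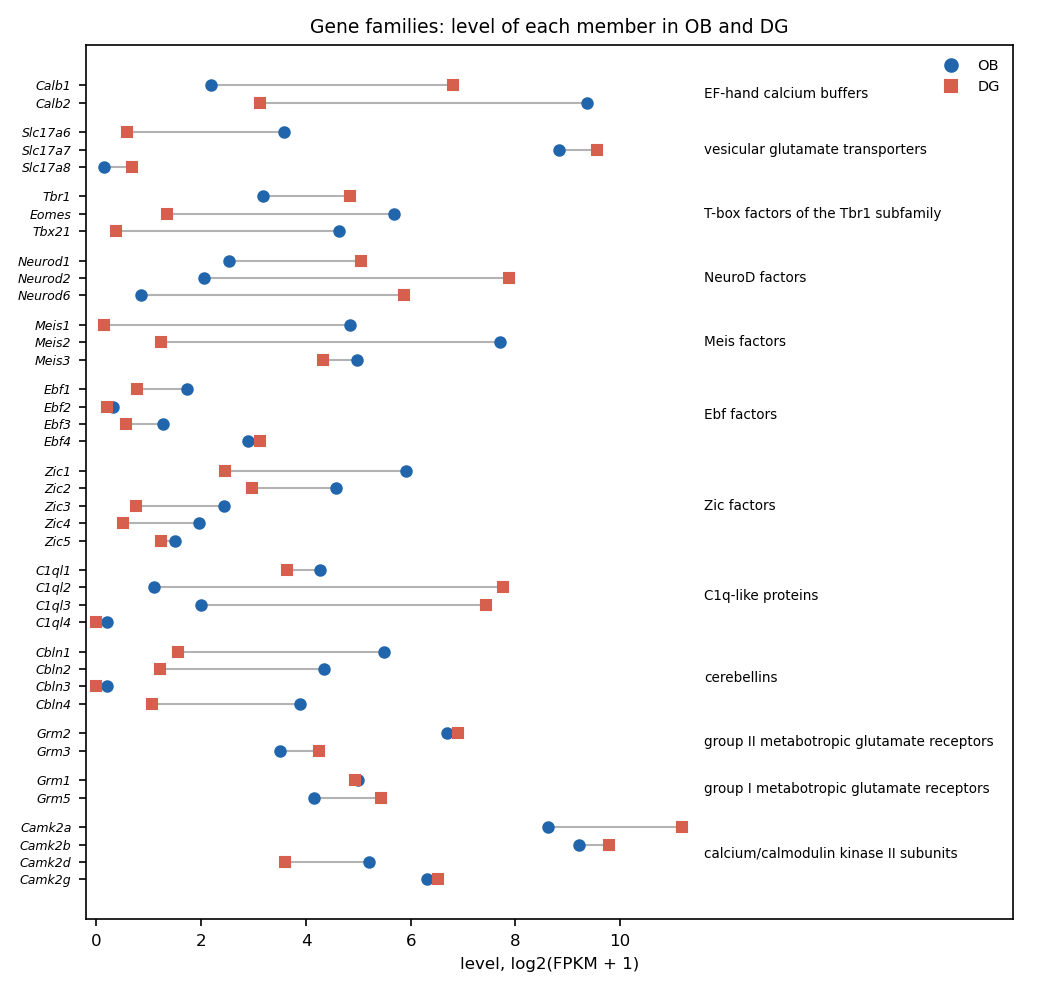
Level of each member of 12 gene families in OB (circle) and DG (square), as log2(FPKM + 1), joined by a line. Members lie past 1 unit on opposite sides for Calb1 and Calb2, Tbr1 and Eomes, and Camk2a and Camk2d. The NeuroD genes and the tested cerebellins lie past 1 unit on 1 side. The Meis and Zic genes lie on the OB side, with Meis3 (0.65) and Zic5 (0.26) within 1 unit. With the GC correction Zic5 lies on the other side.

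Axon guidance genes, which steer growing axons and migrating cells, gave 17 of 69 higher in OB and 16 in DG (0.10). The sign of this median turned with the GC correction (-0.07). Both counts were above the shares of all tested genes, 14.4% toward OB and 5.31% toward DG, and the DG count was further above its share. Toward DG stood Epha7 at 122 FPKM against 5.11 in OB and 25 to 25.9 elsewhere (-4.33), Epha4 at 134 against 21 (-2.62), Slit1 at 133 against 10.8 (-3.50), Robo3 at 20.6 against 1.05 (-3.40) and the semaphorin receptors Nrp1 (-1.91), Nrp2 (-2.17) and Plxna4 (-2.18). Toward OB stood the semaphorin ligands Sema3f (12.8 and 0.0786 FPKM, 3.68), Sema6a (25.3 and 3.14, 2.67) and Sema3a (6.63 and 0.43, 2.42) and the netrins Ntn4 (22.2 and 1.96, 2.97) and Ntn1 (8.33 and 1.26, 2.04). Of the Slit genes, Slit2 (-1.32) and Slit3 (-1.99) were also higher in DG.

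Cadherins and protocadherins, which hold like cells together, gave 15 of 30 higher in OB and 6 in DG (0.69). Cdh22 was at 57 FPKM in OB and 2.75 in DG (3.95), Cdh4 at 31.4 and 1.84 (3.51) and Cdh6 at 13.1 and 1.13 (2.73). Cdh9, an adhesion protein of the mossy fibre synapse, was at 23.4 FPKM in DG and 0.992 in OB (-3.62), and Cdh8 at 4.92 FPKM in OB and 36.2 in DG (-2.65).

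Of 39 Wnt pathway genes 17 were higher in OB and 3 in DG (0.46), with 11 higher in OB after centring: Wnt6 was at 12.8 and 0.336 FPKM (3.37), Wnt5a at 15.6 and 2.23 (2.36) and Wnt7a at 30.3 and 6.23 (2.11), while Wnt7b was at 8.33 and 28.2 (-1.65). Of 44 BMP and TGF-beta genes 16 were higher in OB and 4 in DG (0.41): Bmp7 was at 32.8 and 0.912 FPKM (4.15), Bmp6 at 22.7 and 2.73 (2.67) and the antagonist Nog at 17.4 and 3.39 (2.07), while the antagonist Chrd was at 3.33 and 21.8 (-2.40). Grem1 had 7.66 FPKM in OB, with DG listed at 0. Extracellular matrix genes gave 13 of 30 higher in OB and 3 in DG (0.45), the latter 6 after centring, with Col6a1 at 87.7 and 6.09 FPKM (3.64) and Col25a1, a collagen of neurons, at 0.929 and 8.94 (-2.37). Several of these genes are also made by meningeal cells, whose markers are given below.

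Neurotrophins and other growth factors gave 8 of 20 higher in OB and 3 in DG (0.47), with 5 higher in OB after centring. Bdnf, known from mossy fibres, was at 17.6 FPKM in DG, 3.09 in OB and 0.0222 to 0.841 elsewhere (-2.18), and Ntf3 at 17.6 FPKM in DG and at most 0.125 in the other 4 libraries (-4.05). Their receptors Ntrk2 (185 and 126 FPKM, 0.55) and Ntrk3 (35.5 and 65.9, -0.87) lay within 1 unit. Steroid, thyroid and retinoid genes gave 6 of 26 higher in OB and 4 in DG (-0.23). The mineralocorticoid receptor Nr3c2 was at 58.9 FPKM in DG and 9.63 in OB (-2.50), and Hsd11b1, which regenerates active corticosteroid, at 2.66 FPKM in OB and 28.2 in DG, while the glucocorticoid receptor Nr3c1 was at 10.8 FPKM in OB and 14.9 in DG (-0.44). The retinoic acid binding proteins Crabp1 (26.8 and 0.458 FPKM, 4.26) and Crabp2 (18.1 and 2.82, 2.32) were higher in OB.

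Genes of migrating neuroblasts and immature neurons gave 11 of 21 higher in OB and 1 in DG (1.06), a list that shares Dlx1, Sp8 and Calb2 with those of the bulb. Dcx, doublecortin, was at 37.5 FPKM in OB, 3.9 in DG and 16.3 to 18 in the SVZ (2.97). Sox4 was at 63.9 and 14.1 FPKM (2.11), Tubb3 at 649 and 135 (2.25) and Cd24a at 21.6 and 5.18 (1.87), while Sox11 was at 8.26 and 11.1 (-0.38). The member higher in DG was Neurod1. Of the cycling cell genes, Pcna, which also serves DNA repair, was at 21.7 FPKM in OB and 16.8 in DG (0.35), out of the list's summed 33.5 and 36.1 FPKM. Mki67 was at 0.274 FPKM in OB, 1.38 in DG and 7.38 to 11.3 in the SVZ (-0.90), and Top2a at 0.439, 1.56 and 13.8 to 19.3 (-0.83). Of 11 tested 0 were higher in OB and 2 in DG. The 2 were Birc5 (0.473 FPKM in OB and 2.12 in DG, -1.08) and Ube2c (0.226 and 2.12 FPKM, -1.35). The DG count was 5 after centring, 4 with the GC correction and 0 with a 5 FPKM minimum, which neither gene reached.

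Markers of stem cells and astrocytes lay near the median of all genes, with 5 of 24 higher in OB and 3 in DG (0.02). Gfap was at 278 FPKM in OB and 252 in DG (0.15), against 20.6 to 92.4 elsewhere. Hopx, a gene of dentate stem cells and astrocytes, was at 75.3 FPKM in DG and 31 in OB (-1.26), and Thbs4 at 1.27 FPKM in OB and 12 in DG (-2.52). Hes5, a Notch target, was at 33.4 FPKM in OB and 6.04 in DG (2.29), and Vim at 84.4 and 29.1 (1.51).

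Other cell types a dissection can carry were measured beside these groups. Microglial genes gave 0 of 12 past 1 unit in either direction (relative median -0.17). Oligodendrocyte genes gave 3 of 18 higher in OB and 0 in DG (0.52), summing to 1835 FPKM in OB and 1038 in DG, and their precursors 1 of 7 and 0 (-0.05). Endothelial and mural genes gave 3 of 13 and 0 (0.30), led by Vtn at 144 and 30.7 FPKM (2.20). Meningeal fibroblast genes gave 10 of 11 higher in OB and 0 in DG (1.64), with none listed at 0, and summed to 2768 FPKM in OB, 440 in DG and 297 to 702 in STR and SVZ sample 1. Ptgds made up most of it, at 2178 FPKM in OB and 264 in DG (3.04), and Dcn (22.6 and 4.85 FPKM, 2.01) and Col1a2 (13.8 and 2.99, 1.90) lay on the same side. Lum alone lay on the DG side, at 1.24 FPKM in OB and 3.41 in DG (-0.98). The count of these genes higher in DG was 1 after centring. Blood genes summed to 804 FPKM in OB and 179 in DG, with 2 of 3 higher in OB (1.85): Hba-a2, nearly identical in sequence to another alpha globin gene, was at 678 and 157 (2.10). Their part in the larger number of genes higher in OB was not tested.

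Ependymal genes gave 2 of 9 higher in each region (-0.28), and choroid plexus genes 1 of 5 in OB and 2 in DG (0.59), of which the OB count was Aqp1 alone. Ttr, the defining choroid plexus gene, was at 17.6 FPKM in DG and 0.95 in OB (-3.25), beside 6.37 to 18.2 in the other 3 libraries. Immediate early genes, which neurons induce within minutes of activity or handling, gave 9 of 17 at least 1 unit higher in OB and 0 in DG (1.06). All 17 differences were above 0, but Nr4a3 (0.11) and Egr3 (0.23) lay below the 0.25 median of all tested genes. Nr4a1 was at 131 and 11.4 FPKM (3.41), Egr1 at 158 and 27.1 (2.50) and Fos at 52.1 and 8.95 (2.42). SVZ sample 1 was at 167, 244 and 30.5 FPKM for these 3. The part of handling or killing in these values was not tested.

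Housekeeping groups were read in the same way, and no scaling was based on them. Of 12 reference genes none lay past 1 unit (relative median 0.12), with Actb at 770 and 846 FPKM (-0.14). Cytosolic ribosomal protein genes gave 5 of 79 higher in OB and 1 in DG (0.04, and -0.02 with the GC correction), and proteasome genes 2 of 38 and 0 (-0.15), the former Psmb8 and Psmb11. The ribosomal list summed to 6072 FPKM in OB, 4829 in DG, 6277 in SVZ sample 1 and 8814 in STR. Single members such as Rps29 were far lower in OB and DG, at 12.8 and 4.29 FPKM against 211 in STR. These genes are thus no firm baseline, and the cause was not tested. Nuclear-encoded oxidative phosphorylation genes gave 10 of 87 higher in OB and 0 in DG (0.25), with 3 after centring; Cox4i1 was at 920 and 491 FPKM (0.91) and Atp5b at 980 and 638 (0.62).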

How the data were processed

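Poly(A) RNA from OB and DG was compared, with SVZ and STR as description. Trizol extraction was followed by column clean-up and DNase treatment, per the labels' protocols. The deposited values are FPKM per transcript, computed by the authors for all 5 libraries. The submitters' processing notes list CASAVA, TopHat 1.2.0, Cufflinks 1.0.0 and mm9 without saying what each did. The annotation, the strandedness and which libraries were paired-end are not given in the sources used here. FPKM carry no counts, so the depth is unknown and no counting interval is given. The authors' deposited table also gives transcript lengths and the catalogue file start and end positions, which are other, unscaled numbers; they were used only for length and coordinates, counted from 1.

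FPKM of coding RefSeq transcripts were summed by symbol in Python 3.11.15 (pandas 2.3.3), and genes at 1 FPKM or more in OB or DG were compared on log2(FPKM + 1). Whole-table genes were counted at 2 log2 units and list members at 1. The counting was tested on simulated data. GC content came from GENCODE M21 transcripts and was known for 99.7% of tested genes. Transcripts were matched by RefSeq identifier, and by symbol or synonym where no identifier matched. Promoters came from RefSeq on GRCm38.p6, matched by symbol.

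The members and the 49 lists were chosen with earlier results of these data known. Named were, from genes reaching 5 FPKM in the higher region, the 15 furthest toward OB and toward DG, the first 3 tested members of each list and the 3 furthest each way, and all members of 12 families. Other list members named, the motifs and the promoters shown were picked once their values had been seen. List members Nrep, Dnah5, Dnah11, Hba-a1 and Hbb-b2 were not analysed here, and some other genes are not reported here. Alternatives were a pseudocount of 0.1, a minimum of 5 FPKM, no minimum, centring on the median gene, upper-quartile scaling, the highest transcript of a symbol and a lowess correction on GC content (span 0.3, statsmodels 0.14.6). Leaving out genes listed at 0 in OB or DG was added after the data were seen.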

Additional observations from a re-analysis of the deposited data

How the results depend on the processing

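No replicate could be left out, because each region had 1 library, and the depth is unknown. No paired analysis was possible because OB and DG have 1 library each and no replicate number to share. With a pseudocount of 0.1 in place of 1, 933 genes were at least 2 log2 units higher in OB and 310 higher in DG, and these held all 491 and 196 genes counted with 1. The other alternatives gave 350 to 491 genes higher in OB and 194 to 274 higher in DG: 448 and 194 at 5 FPKM or more, 362 and 264 after centring, 403 and 242 with upper-quartile scaling, 480 and 203 with the highest transcript of a symbol, 350 and 274 with the GC correction and 432 and 195 without genes listed at 0. Of the calls higher in OB, 348 of 491 were shared under the GC correction and 362 under centring, and of those higher in DG all 196 under both. No list median or named difference past its threshold changed sign under these alternatives. Over all counts, those of list members included, 67 moved by more than 1.5 times and 733 did not. List medians, here without subtraction of the median gene, crossed 1 log2 unit 11 times. They came below it for migrating neuroblast genes (0.91) and immediate early genes (0.89) under the GC correction, for neuropeptide precursors without genes listed at 0 (0.92) and with no minimum (0.80), and for blood genes with no minimum (0.81). They reached it at 5 FPKM or more for olfactory nerve genes (1.75), mossy and hilar cell genes (1.96) and Wnt genes (1.18), and with a pseudocount of 0.1 for olfactory nerve genes (1.00), cadherins (1.00) and serotonin, adrenergic and muscarinic receptors (1.38). The cause of these moves was not tested.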

Other observations

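Noncoding genes were compared in the same way. Of 1948 RefSeq noncoding symbols 464 reached 1 FPKM in OB or DG, and 31 were at least 2 log2 units higher in OB and 8 higher in DG (median difference 0.26). Miat, a long nuclear RNA of neurons, was at 153 FPKM in DG, 19.6 in OB and 13.1 to 35.1 elsewhere (-2.90), and the pseudogene Tmem181c-ps at 56.4 FPKM in DG and 8.89 in OB (-2.54). The noncoding transcript listed under Elmo1 was at 57.8 FPKM in OB and 4.21 in DG (3.50). Of 5731 loci of the study's long noncoding RNA catalogue 1303 reached 1 FPKM, with 50 higher in OB and 65 in DG (median 0.10), the larger count being toward DG here. In DG 29 of the 65 were shorter than 200 bases, against 5 of the 50 in OB and 57 of the 1303 in all, and 32 and 29 were listed at 0 in the lower region. The 6 leading DG loci were each a transcript of 100 bases listed at 0 in OB; the highest, XLOC_015077 at 3:31290182-31335222 (mm9), was at 1552 FPKM in DG and at 0 in the other 4 libraries. The part of length in these counts was not tested.

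Further coding genes outside the lists were singled out after their values were seen. Vipr2, a receptor for the peptide Vip, had 36 FPKM in OB, with DG listed at 0. Lgr5 was at 35.8 and 0.0789 FPKM and its relative Lgr6 at 32.2 and 0.514, both receptors for R-spondins. Slc30a3, the zinc transporter of mossy fibre vesicles, was at 162 FPKM in DG, 11.3 in OB and 0.389 to 1.53 elsewhere. Npy2r, a receptor for Npy, was at 16.5 FPKM in DG and 0.391 in OB, while Npy itself was higher in OB.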
